A study of Rattus norvegicus with 4 samples.

Results

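The genes described here are those of the major histocompatibility complex (MHC) class II pathway and its transcriptional regulators: the RT1-D chains RT1-Da and RT1-Db1, the RT1-B chains RT1-Ba and RT1-Bb, the invariant chain Cd74, the peptide-loading genes RT1-DMa and RT1-DMb, and the regulators Ciita, Rfx5 and Rfxank. They were chosen by name from textbook knowledge of the pathway, with earlier results of these data known. Array probes were assigned to them through the RefSeq accession that each probe carries. All 10 genes were measured, by 11 probes, among 16506 named genes. The cells were NR8383, an established rat alveolar macrophage line obtained by lung lavage of a normal rat, which grows with adherent and floating cells together. The 4 samples formed a single group, 4 biological replicates of the untreated medium control, in which cells after 20 passages, grown in 15% fetal bovine serum and seeded for 48 h, were held for 4 h in DMEM with 10% serum. The labels add the letters ALI without spelling them out. No other treatment, genotype or cell type was part of the series. The data therefore answer which members gave a signal above background in this condition and how closely the replicates agreed. A probe that gave none does not show that its gene was not expressed.

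MHC class II molecules present peptides from engulfed material to CD4+ T cells. Each is a pair of an alpha and a beta chain, held in the endoplasmic reticulum by the invariant chain Cd74, which blocks the groove and steers the complex to endosomes. Proteases there cut the invariant chain down to a short remnant, and the DM heterodimer exchanges that remnant for antigenic peptide. The genes are switched on together by Ciita, a coactivator that does not bind DNA itself but docks on a platform of RFX (Rfx5, Rfxank and Rfxap), CREB and NF-Y proteins over the conserved X and Y boxes of class II promoters. Interferon-gamma induces Ciita in macrophages through its receptor and Jak kinases.

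Signals are the processed intensities of one-colour Agilent arrays, in scanner units, and levels are log2 signals minus the array's own 75th percentile over probes. A probe was called detected when, on all 4 arrays, most of its spots carried the scanner software's flag for a signal well above background. Of 58717 transcript spots, the flagged share was lowest on replicate 1 (50.9%) and highest on replicate 4 (58.9%), as was the scaling percentile, at 83.4 and 167. Negative control spots match no transcript, and their 95th percentile, called the negative limit here, lay between 3.07 and 3.60. The number of arrays limits the precision. All values are per probe, and the level of a probe is not set against that of another.

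Of the 10 members 6 were detected, a share of 60% beside 53.1% for all named genes, so the count itself does not set the members apart. Both DM genes were detected, as were the beta chain genes RT1-Db1 and RT1-Bb and the regulators Rfx5 and Rfxank. The alpha chain genes RT1-Da and RT1-Ba, the invariant chain Cd74 and Ciita were not. A second call, limma's moderated test of each probe against the negative limit (one-sided, adjusted over 45280 probes), passed 8 of the 10 members beside 70.1% of named genes, adding Ciita and RT1-Da.

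**Figure D1:**
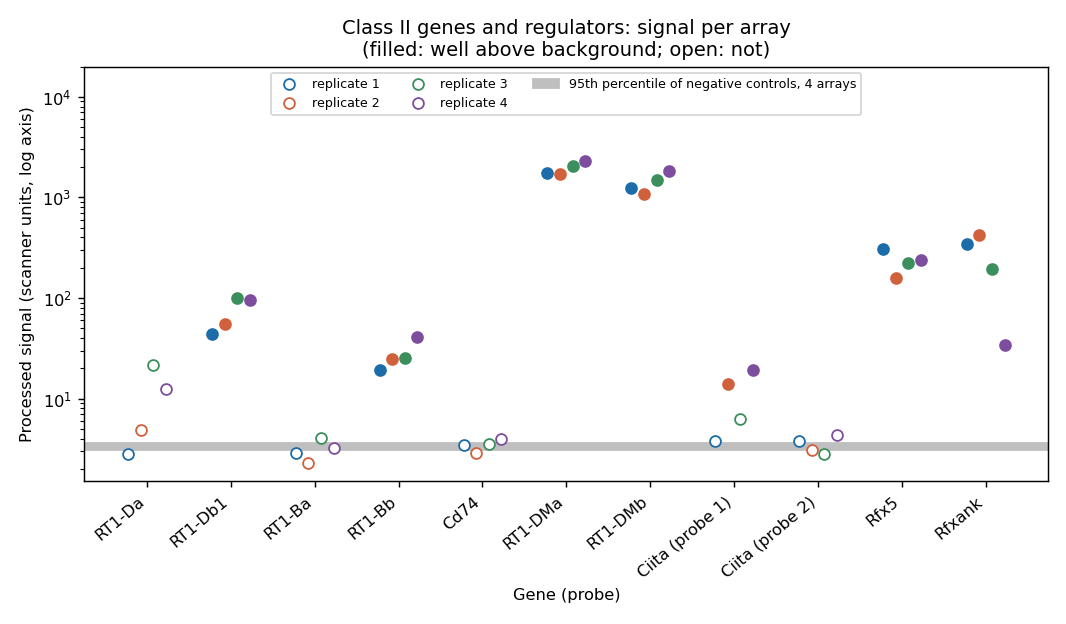
Processed signal (scanner units, log axis) of each member probe on the 4 arrays, 1 point per array, grouped by role. Filled points were well above background and open points were not. The grey band spans the negative limit of the 4 arrays, and RT1-Ba, Cd74 and the second Ciita probe lie in or near that band, between 2.31 and 4.33, with open points on all arrays.

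The promoters of the members were searched for the letters of the X and Y boxes, over which the platform described above is known to form. RefSeq windows on GRCr8, from 250 bases before to 50 after the transcript start, were found for 8 of the 10 members, all but Ciita and RT1-DMb. The X box core and the Y box are given in capitals, among genes whose proteins form or load the class II molecule, for 3 that were detected (the first 3) and 3 that were not (the last 3). RT1-Ba and Cd74 hold no match to the letters searched as the X box core, so their capitals mark only the Y box or its core. The lack of a match to these letters does not show that either gene lacks an X box. RT1-DMa and Cd74 hold only the Y box core and not the full Y box. Each line runs 5′ to 3′ along the gene.
RT1-DMa, chr20:4712383-4712444, minus strand: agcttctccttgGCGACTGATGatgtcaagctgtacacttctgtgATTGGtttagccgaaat
RT1-Db1, chr20:4560226-4560286, minus strand: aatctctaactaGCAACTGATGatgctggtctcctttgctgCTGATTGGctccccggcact
RT1-Bb, chr20:4604163-4604223, minus strand: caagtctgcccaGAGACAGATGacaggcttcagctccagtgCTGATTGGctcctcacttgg
RT1-Da, chr20:4515321-4515382, plus strand: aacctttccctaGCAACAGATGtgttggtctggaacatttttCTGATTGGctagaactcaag
RT1-Ba, chr20:4576966-4577030, plus strand: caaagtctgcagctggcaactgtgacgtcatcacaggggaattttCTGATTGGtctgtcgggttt
Cd74, chr18:56526972-56527033, plus strand: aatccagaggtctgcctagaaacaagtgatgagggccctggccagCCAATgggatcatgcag

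The letters were searched on both strands. The Y box CTGATTGG was present in 5 of the 8 members (RT1-Da, RT1-Db1, RT1-Ba, RT1-Bb and, on the reverse strand, Rfx5) and in 3.50% of all 33469 promoter windows. Its core ATTGG, which overlaps it, was in all 8 and in 37.5% of all windows, and in Cd74 it stood on the reverse strand as the CCAAT shown above. The X1 box, a longer and stricter form of the X box, was in RT1-Da and RT1-Bb and in 0.753% of windows. The shorter X box core, the end of the X1 box and the first run of capitals in the first 4 sequences above, was chosen after these sequences had been seen. It was in 9.65% of all windows. Among the members it stood in RT1-DMa, RT1-Db1, RT1-Bb and RT1-Da, with 22 or 23 bases between it and the Y box core. Of all windows 0.260% held both on 1 strand with 10 to 35 bases between them. Like the X box core, this pairing and its spacing were not planned, so that share is no test of the members. The interferon-gamma activated sequence TTCNNNGAA was in none of the 8 member genes and in 8.87% of windows. A match is a description of letters and not a site in use.

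**Figure D2:**
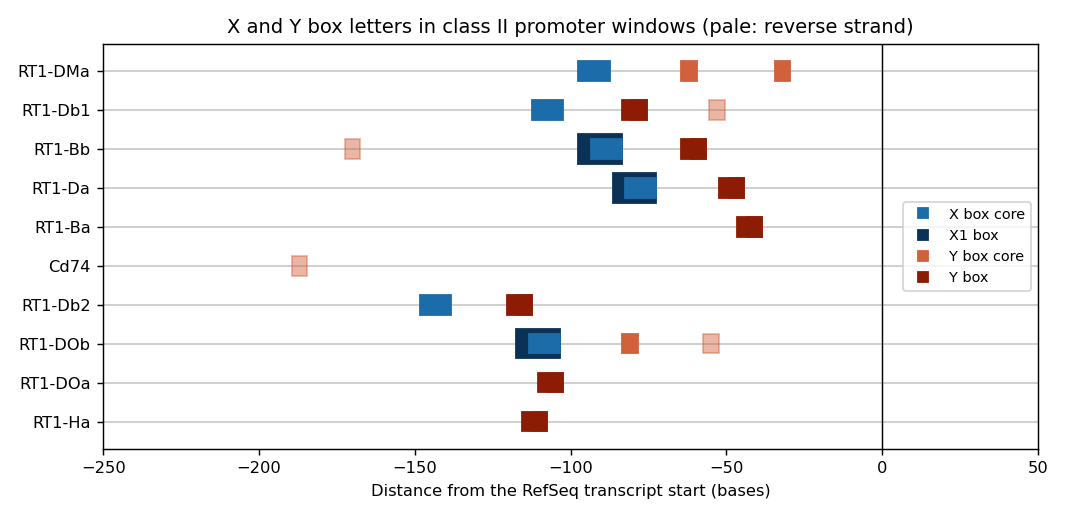
Positions of X box and Y box letters in the promoter windows of class II genes, as distance in bases from the RefSeq transcript start, on the forward strand (full colour) and the reverse strand (pale). RT1-DMa, RT1-Db1, RT1-Bb and RT1-Da hold an X box core upstream of a Y box core, as do RT1-Db2 and RT1-DOb, which were not detected on these arrays.

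RT1-Db1, the beta chain of RT1-D, was detected on all arrays by a probe printed at 2 spots. Its mean signals, in the order of replicates 1 to 4, were 43.7, 54.6, 100.3 and 95.5, or 13.5 to 32.7 times the negative limit. Both spots were well above background on each array. They differed by up to 1.40 log2 units, on replicate 4 (155 and 58.7), a gap that 101 of the 969 probes printed at 2 spots reached on some array. The level was -0.78 ± 0.31 (SD, n = 4), with replicate 3 the highest at -0.33 and the others between -1.04 and -0.81. Of all detected genes 32.9% had an SD at least as large. The limma test placed the probe 4.39 ± 0.28 (SE) log2 units above negative controls (adjusted p = 7.56e-09).

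Its partner RT1-Da, the alpha chain, gave spots that contradicted each other. One spot of its probe read 248.8, 9.76, 168 and 40.9 in replicate order, and was well above background on all but replicate 2. The other spot of the same probe read 2.78, 2.39, 2.82 and 3.83, at the level of negative controls on every array. The gap between the pair reached 6.48 log2 units on replicate 1. Of the 969 probes, 2 had a gap that large on any array, RT1-Da included, and the median probe's largest gap was 0.36. The software also marked the bright spot as an outlier on replicate 1, where it was left out of the probe's mean.

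The bright RT1-Da spot sits beside the spot of Rn45s, the ribosomal RNA precursor, which was the brightest of the whole array on 3 of the 4 arrays. The Rn45s spot read 381724, 296131, 327451 and 319690 in replicate order. Both spots were highest on replicate 1, next on replicate 3 and lowest on replicate 2. Of the 5 other spots among the 6 nearest to Rn45s, none followed that order. Xiap, an inhibitor of apoptosis, read 26.6, 52.9, 31.0 and 48.6. The part of the bright neighbour in the RT1-Da value was not tested. On the mean of its usable spots RT1-Da passed limma's test against negative controls (adjusted p = 0.0244), and it lost that call without replicate 2 and without replicate 3.

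**Figure D3:**
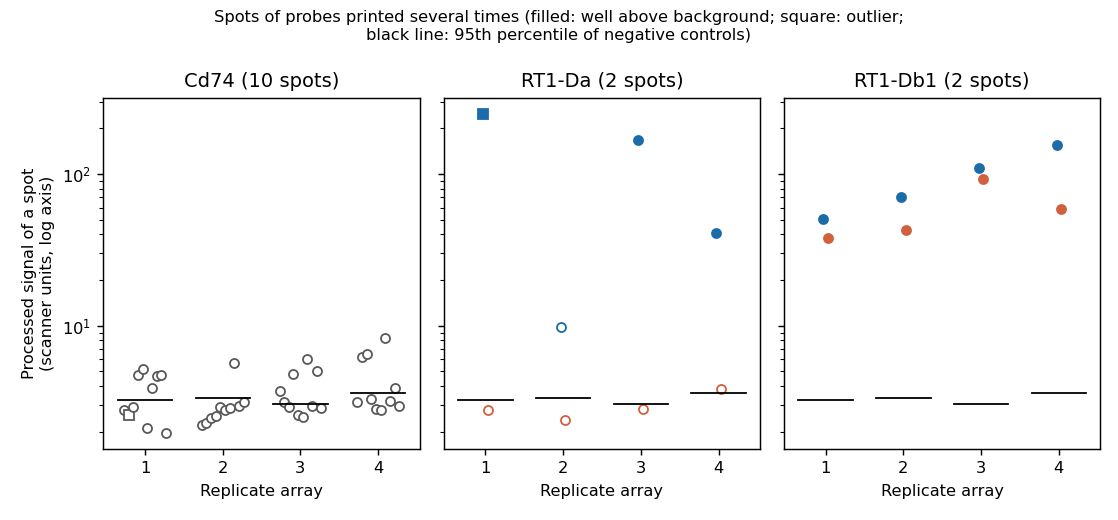
Processed signal (scanner units, log axis) of each spot of the Cd74, RT1-Da and RT1-Db1 probes by array. Filled symbols were well above background, squares were marked as outliers, and black lines give the negative limit. Both RT1-Db1 spots are filled on every array, the RT1-Da spots lie up to 6.48 log2 units apart, and no Cd74 spot is filled.

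In the RT1-B pair the beta chain was detected and the alpha chain was not. RT1-Bb, the beta chain, read 19.1, 24.5, 25.6 and 40.5 in replicate order, and its single spot was well above background on each. Scaled to each array its level was -2.17 ± 0.11 (SD, n = 4). That is a close agreement between replicates, since 86.7% of detected genes had an SD at least as large. It lay 3.00 ± 0.35 (SE) log2 units above negative controls by limma (adjusted p = 3.29e-06). RT1-Ba, the alpha chain, read 2.89, 2.31, 4.02 and 3.22 on replicates 1 to 4 and was well above background on none (limma adjusted p = 0.915).

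Cd74, the invariant chain, was the most densely sampled member, with 10 spots on each array. None of the 40 spots was well above background, and their signals ran from 1.97 to 8.33 with a median of 2.96. The probe's mean read 3.46, 2.88, 3.50 and 3.98 in replicate order, 0.867 to 1.14 times the negative limit, and limma did not place it above that limit (adjusted p = 0.50). For every probe, the test and the limit use values in which the software has replaced dim signals, so signals this dim are poorly resolved. Before the software replaces dim values, the background-subtracted signal of 30 of the 39 usable spots exceeded the same percentile of the negative control spots. By array these were 8 of 9 spots, 5 of 10, 8 of 10 and 9 of 10 in replicate order, beside 59.9%, 63.0%, 65.3% and 69.8% of all spots that were not well above background. The looser flag, positive and significant against background, was carried by 19 of the 40 Cd74 spots, and by most usable spots on 2 arrays. On all 4 arrays 66.9% of named genes carried it, and Cd74 was not among them.

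RT1-DMa and RT1-DMb encode the alpha and beta chains of the DM heterodimer, which loads peptide and does not itself present it. RT1-DMa read 1735, 1701, 2053 and 2317 in replicate order, at least 512 times the negative limit. RT1-DMb read 1246, 1081, 1489 and 1835 on the same arrays, at least 325 times that limit. After scaling their levels were 4.03 ± 0.25 and 3.55 ± 0.27 (SD, n = 4), highest on replicate 1 for both (4.38 and 3.90) and within 0.63 log2 units across arrays. Of all detected genes 42.3% were also highest on replicate 1. Limma placed them 9.20 ± 0.16 and 8.71 ± 0.17 (SE) log2 units above negative controls (adjusted p = 2.23e-14 and 4.71e-14).

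Ciita, the coactivator that switches the class II genes on, was measured by 2 probes that disagreed. The first read 3.80, 14.1, 6.30 and 19.3 in replicate order, well above background on replicates 2 and 4. The second read 3.77, 3.12, 2.81 and 4.33 and was well above background on no array. By limma the first probe lay above negative controls (adjusted p = 0.00748) and the second did not (adjusted p = 0.477). Under a looser flag, a signal positive and significant against background, the first probe passed on all 4 arrays, beside 66.9% of all named genes.

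Rfx5, the DNA-binding subunit of RFX, was detected with signals of 304, 159, 221 and 239 in replicate order, 47.8 to 93.6 times the negative limit (limma adjusted p = 8.68e-12). Its level was 0.92 ± 0.64 (SD, n = 4), where replicate 1 stood at 1.86 and the others between 0.50 and 0.81. Only 4.51% of detected genes had an SD at least as large. Without replicate 1 its level was 0.61 ± 0.17 (SD).

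Rfxank, the ankyrin-repeat subunit of RFX, was detected with the widest spread of the members. It read 345, 423, 197 and 34.0 in replicate order, 9.45 to 127 times the negative limit (limma adjusted p = 1.07e-07). Its level lay near 2 on replicates 1 and 2 (2.05 and 1.92), at 0.64 on replicate 3 and at -2.30 on replicate 4, 0.58 ± 2.02 (SD, n = 4), an SD that 0.0684% of detected genes reached. Its spot, at row 186 and column 82, lies in an area of the array surface that was dim on replicates 3 and 4. Probes inside that area that were well above background on replicates 1 and 2 had a median level 0.89 lower on replicate 3 and 2.32 lower on replicate 4 than the mean of those arrays, against offsets of 0.014 and -0.033 outside. In the 36 probes nearest to Rfxank, within 6 rows and 3 columns, the median offset was -1.04 on replicate 3 and -3.30 on replicate 4. With these offsets removed, a correction added after the data were seen, Rfxank stood at 1.68 and 0.998 on those arrays and at 1.66 ± 0.47 over all 4. On replicates 1 and 2 alone it stood at 1.98 ± 0.09 (SD, n = 2).

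The first Ciita probe, at row 178 and column 86, lies in the same area. Of its 25 neighbours 22 were lower on replicate 3 and 24 on replicate 4, with median offsets of -1.02 and -2.38. Its own unscaled signal was highest on replicate 4, but its scaled level was highest on replicate 2, at -2.99 beside -3.12 on replicate 4. Removing the offsets raised its level on replicate 4 from -3.12 to -0.74 and widened its SD from 0.77 to 1.56, the opposite of what the same step did to Rfxank. Rfxank was still well above background on replicate 4 at its dimmed value. Ciita was not well above background on replicate 1 or on replicate 3, where its neighbours were dim on replicate 3 and not on replicate 1. The part of the dim area in its call was not tested.

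**Figure D4:**
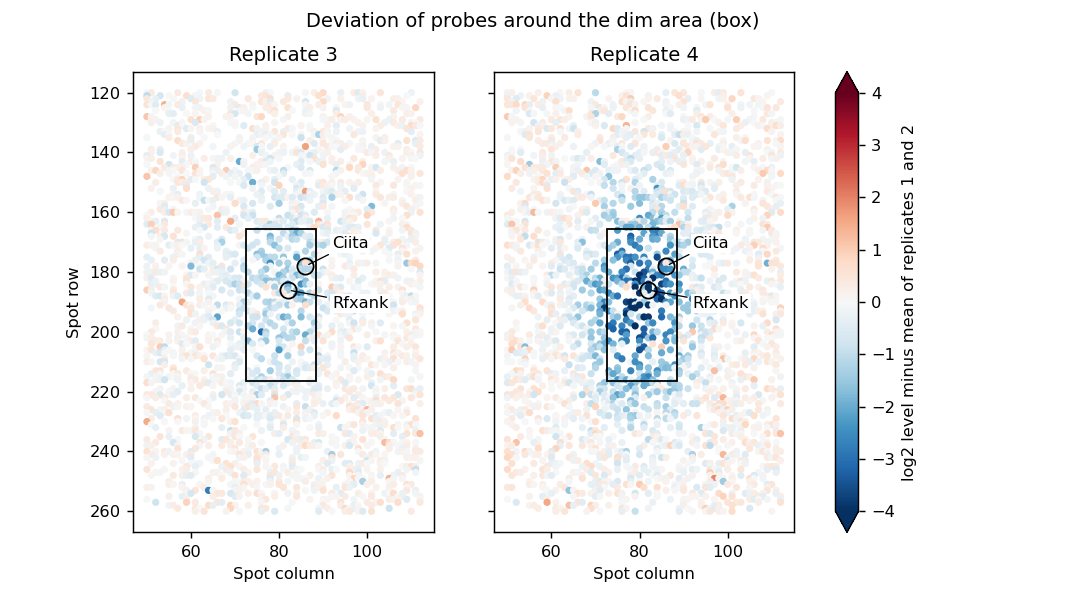
Probes around the dim area on replicates 3 and 4, by spot column and row, coloured by the log2 level minus the mean of replicates 1 and 2. Only probes well above background on replicates 1 and 2 are drawn, the box marks the dim area, and circles mark Rfxank and the first Ciita probe. Blue points, lower than on replicates 1 and 2, fill the box on both arrays and are deepest on replicate 4 near Rfxank.

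Other genes of the pathway were mostly detected where they act around the class II chains. Of the class II genes beyond the members, none of 4 measured was detected: RT1-DOb, RT1-Ha and RT1-Db2 never rose well above background, and RT1-DOa read 14.8 on replicate 2 but between 2.25 and 2.88 elsewhere. RT1-DOa and RT1-DOb encode DO, known in human and mouse cells to restrain DM. RT1-Hb was not measured. RT1 chain genes have close copies, and cross-hybridisation between their probes was not tested. All 9 class II processing genes were detected, beside 53.1% of named genes. They included the proteases Ctss, which cleaves the invariant chain, at 4.96 ± 0.24 and Ctsl at 0.50 ± 0.11, and the thiol reductase Ifi30 at 7.69 ± 0.18 (log2 levels, SD, n = 4).

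Of the measured genes of class II transcription 80% were detected, and of the interferon-gamma route 76.9%, beside 53.1% of all named genes. Of 10 measured genes of class II transcription 8 were detected, first Rfxap, the remaining RFX subunit, at 0.51 ± 0.37, the NF-Y subunit Nfya at -1.62 ± 0.52 and Creb1 at 0.08 ± 0.12. The other NF-Y subunit measured, Nfyb, was well above background on no array, and Prdm1, a repressor of Ciita, on 3. Of 13 genes of the interferon-gamma route 10 were detected, with the receptor chains Ifngr1 and Ifngr2 at 4.61 ± 0.30 and 3.61 ± 0.15 and the kinase Jak1 at 3.70 ± 0.39. The 3 not detected were Irf8, an interferon regulatory factor of macrophages, on 1 array, the feedback inhibitor Socs1 on none and the ligand Ifng itself on none.

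The MHC class I list holds the chains of the class I molecule together with genes of peptide supply, loading and protein folding. All 11 measured genes of this list were detected, as were all 9 of class II processing, beside 53.1% of all named genes. The heavy chains RT1-A1 and RT1-A2 stood at 9.03 ± 0.39 and 8.31 ± 0.57 and their partner B2m at 8.06 ± 0.08. Heavy chain genes are near-identical copies, so their probes may share signal. Genes of costimulation and adhesion raise or (Cd274 and Pdcd1lg2) restrain T cell responses to presented peptide. They were detected in 4 of 7 cases (57.1%), near the 53.1% of all named genes, with Cd80 at -2.00 ± 0.07, Cd274 at -0.44 ± 0.68 and Icam1 at 5.16 ± 0.45. Neither Cd86 nor Pdcd1lg2 reached that flag on any array, and Cd40 did on 1.

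**Figure D5:**
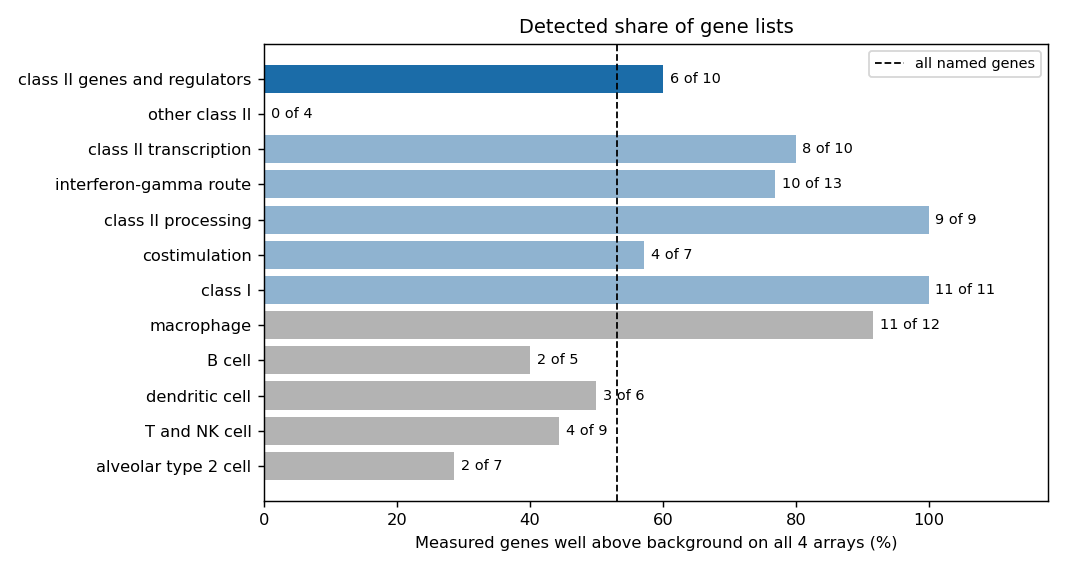
Share of the measured genes of each list that were well above background on all 4 arrays, in percent, with counts beside the bars, for the members (dark blue), pathway lists (light blue) and cell type markers (grey). The dashed line is the share over all named genes, 53.1%. Class II processing and class I reach 100%, and class II genes beyond the members stay at 0.

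Markers of the line's own type were mostly detected, and those listed for other cell types were detected in part. Of 12 macrophage markers 11 were detected, beside 53.1% of all named genes. Among them were Cd68 at 7.44 ± 0.17 and the myeloid factor Spi1 at 3.78 ± 0.11, while Mertk, the other marker, was well above background on 3 arrays. The summed signal of this list lay between 79415 and 123956 on an array. The sums given here are over different probes and lists of different length, so they are not set against each other. B cell markers were detected in 2 of 5 cases, the factors Pax5 and Ebf1, with Cd79b and Cr2 on no array and a summed signal between 175 and 318. Dendritic cell markers were detected in 3 of 6 cases (Batf3, Clec9a and Irf4), with a summed signal between 333 and 489 and Xcr1 and Zbtb46 on no array. T and NK cell markers were detected in 4 of 9 cases, among them Cd3d at -0.69 ± 0.14, Cd4 at 0.49 ± 0.12 and Lck at -0.48 ± 0.29, with Cd3e and Cd8a on no array, Cd3g on 2 and a summed signal between 288 and 606. Alveolar type 2 markers were detected in 2 of 7 cases, Sftpd at -1.71 ± 0.73 and Napsa at 5.90 ± 0.41. Among the others, Sftpc was flagged on 2 arrays, and Sftpb and Sftpa1 on none. The summed signal of this list, between 5449 and 8877, came almost wholly from Napsa, so it does not describe the list as a whole. All samples were of the same cultured line, so a marker detected here is a transcript of that culture and does not name another cell type. Whether all cells of the line or only some carried the RT1-Db1 and RT1-Bb signals was not tested. In a bulk sample few cells with much RNA and many with little cannot be told apart.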

How the data were processed

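Total RNA (100 ng per sample, integrity number above 7.5 per the labels' protocols) was labelled with Cy3 and hybridised to 4 one-colour Agilent arrays. The intensity of each spot, linear and in scanner units, is as deposited, made by the authors with Agilent Feature Extraction 11.0.1.1 per the submitters' processing notes. Its 75th percentile differs between arrays. All arrays lie on 1 slide with 1 scan per the file headers, so neither could be tested as a batch.

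Control and outlier spots (between 529 and 1406 outliers per array) were left out, log2 signals of a probe's spots were averaged, and each array's 75th percentile over 45280 probes was subtracted. Accessions were named through RefSeq symbols of GRCr8, which matched 17614 of 40539, and promoter windows are RefSeq's on that build. The arrays were designed on rn4, so no array coordinates are given. A gene's level is the mean of its detected probes. The limma fit (intercept, trend, Benjamini-Hochberg, threshold 0.05) ran on all probes and was tested on simulated data.

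The members, lists and tests were chosen with earlier results of these data known. All members are named, and of other lists at most the first 3 detected and the first 3 not detected, with a few markers named besides; some list genes are not reported here by name. Likeness to other genes was not computed, since 4 samples of 1 condition are too few. The labels call the samples biological replicates without saying how cultures were separated. Software was R 4.3.3, limma 3.58.1, data.table (1.17.8), Python 3.11.15 and matplotlib 3.10.9. Alternatives were each replicate left out, looser flags, other control percentiles, other background correction and scaling, and spots of the dim area left out.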

Additional observations from a re-analysis of the deposited data

How the results depend on the processing

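The count of detected members was 6 without each replicate in turn, under detection on at least 3 arrays, with the first probe of a gene, with outlier spots kept and, added after seeing the data, with any spot of a probe or without replicates 3 and 4. Under these settings between 8340 and 9459 named genes were called, of 16506, or of 16581 with outlier spots kept. The member count was 7 with the positive-and-significant flag, which added Ciita, beside 66.9% of named genes. It was 5 without the dim area, where Rfxank has its only spot, beside 8707 of 16350 named genes. The limma count was 8, and between 7 and 8 without each replicate in turn (RT1-Da was lost without replicate 2 and without replicate 3). It was 8 with the 99th percentile of negative controls and with normexp. Under these alternatives between 11033 and 11753 of 16506 named genes passed. With probes significant on at least 1 array it was 8, beside 11659 of 14931 named genes. Without the dim area it was 6, beside 11471 of 16350, and the members lost were Ciita and Rfxank. Of 65 alternative levels of the 6 detected members, 56 stayed within 1 SD of the reported level and 9 moved further. The SD is each member's own, so for Rfxank, with an SD of 2.02, levels from 0.085 to 1.98 counted as within it. The 9 were all 6 members when the 75th percentile was taken over detected probes, a centring that lowers every level alike (RT1-DMa to 0.95, RT1-Bb to -5.25), and RT1-Bb (-1.04), RT1-DMa (3.48) and RT1-DMb (3.07) under normexp with an offset of 50. The cause was not tested. No paired analysis was possible because there was a single group. The limma calls of Ciita and RT1-Da rest on 4 arrays and on probes or spots that disagreed with each other. Why they disagreed was not tested.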
